A study of Drosophila melanogaster with 4 samples.

Results

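The genes described here hold sister chromatids together or hold homologous chromosomes in pairs. They were chosen by FlyBase symbol: solo, sunn, ord, mei-S332 and tef of male meiosis, and SMC1, SMC3, vtd and Nipped-B of the general cohesin machinery. All 9 were found among 17409 gene rows. Libraries of polyadenylated transcripts came from the testis, where sperm are made, and from the seminal vesicle, where they are stored; the latter samples took in the terminal epithelium of the testis. All flies were adult Drosophila melanogaster males of the Oregon-R-modENCODE strain, 4 to 5 days old and raised in constant light, and the labels name no other genotype or treatment. Dissections on consecutive days gave 2 libraries for each tissue. The labels do not say how many males went into a library, and the tissues were whole organs with several cell types.

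Cohesin is a ring that encircles sister chromatids. SMC1 and SMC3 form its arms, a kleisin subunit (Rad21, encoded by vtd) closes it, and a stromalin binds the kleisin. Nipped-B, with Mau2, loads the ring onto chromosomes. In meiosis the ring must be lost from chromosome arms before it is lost from centromeres. In Drosophila the proteins SOLO, SUNN and ORD are needed for meiotic cohesion, and MEI-S332, of the shugoshin family, protects cohesion at centromeres until sister chromatids part. Drosophila males form neither crossovers nor a synaptonemal complex. Their homologous chromosomes are instead held together by a conjunction complex that includes the stromalin SNM, the MNM product of mod(mdg4), UNO and, on autosomes, the zinc finger protein Teflon encoded by tef.

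Gene counts per library ran from 11120405 to 15528462. Levels are CPM (counts scaled to a common total, here per 1e+06 gene counts, scaled by TMM, a normalisation that assumes most genes to be balanced between libraries). A positive log2 fold change means a higher level in seminal vesicle, and the value after ± is its standard error. Adjusted p-values are from edgeR's quasi-likelihood test with Benjamini-Hochberg adjustment over 11737 genes tested, and a gene was called at an adjusted p under 0.05. In whole organs, fewer cells of a type and less RNA per cell cannot be told apart. Listed markers of germ cells and early germ line were called higher in testis in 11 of 11 cases, beside 44.5% of all genes tested. The markers vas, aly, fzo, bam and nanos, and upd1 below, passed the filter on low counts through testis alone. For these a higher testis level was made likely or certain by the filter, so their calls give no support. Markers of muscle, and of seminal vesicle with its terminal epithelium, were called higher in seminal vesicle in 7 of 7 cases. Across all genes tested, 42.1% were called in that direction. Abd-B, and Acp26Aa and SP below, passed the filter through seminal vesicle alone, so the filter fixed their direction. The lists were chosen with earlier results of these data known, so these marker counts give no independent support. Summed accessory gland markers were at 6.59 to 8.62 CPM in testis and 11.7 to 30.2 CPM in seminal vesicle, and 2 of the 3, Acp26Aa and SP, were called higher in seminal vesicle. Summed hemocyte markers were at 2.35 to 3.15 and 4.61 to 11.2 CPM in the same order, and Hml was called higher in seminal vesicle. Of 4 cyst and hub markers, 3 were called higher in testis (tj, zfh1 and upd1) and eya was not called; their sum was 67.7 to 74.7 CPM in testis and 48.9 to 51.8 CPM in seminal vesicle. Of the fat body markers, Fbp1 had 0 counts in all 4 libraries and Lsp2 was at 1.71 to 3.62 CPM. Whether these other tissues contribute to the values below was not tested.

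Of the 5 male meiotic genes, ord, mei-S332, sunn and solo were called higher in testis and tef was not called (with DESeq2 the call of solo was lost). None of the 5 was higher in seminal vesicle at an unadjusted p under 0.05, by edgeR or DESeq2. Across all genes tested, 44.5% were called higher in testis. Of the 4 general cohesin genes, 3 were called higher in seminal vesicle, by 1.45-fold to 1.87-fold with TMM scaling, and Nipped-B was not called. Across all genes tested, 42.1% were called higher in seminal vesicle. With library size only or spike-in factors none of these 3 calls remained, and with spike-in factors the 3 values were below 0, as for the meiotic genes. The median log2 fold change of all genes tested was -0.11. So many genes differed between these tissues that a call alone says little about these genes, and the sizes below carry more. All 9 genes passed the filter on low counts. For solo and sunn this was through their testis counts alone, so their direction was fixed by the filter and their calls add no support. The filter was passed in both tissues by the other 7.

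**Figure D1:**
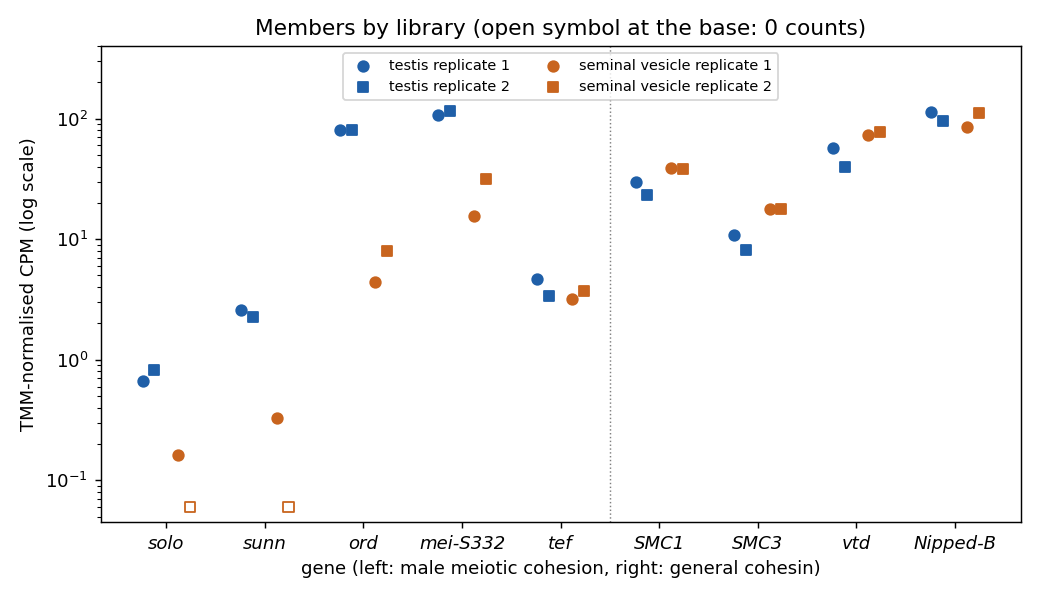
TMM-normalised CPM on a log axis for each of the 9 genes, with 1 point per library; colours mark tissue, shapes mark replicate, and an open symbol at the base marks 0 counts. With this scaling testis points lie above seminal vesicle points for solo, sunn, ord and mei-S332, below them for SMC1, SMC3 and vtd, and among them for tef and Nipped-B.

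The most abundant of the meiotic genes was mei-S332 (FBgn0002715; 2R, 22122101 to 22124566, plus strand, Release 6 assembly), the founding shugoshin gene. It stood at 108 and 116 CPM in the testis libraries and at 15.5 and 31.7 CPM in the seminal vesicle libraries. Every testis value exceeded every seminal vesicle value, and the seminal vesicle libraries differed from each other far more than the testis libraries did. The log2 fold change was -2.25 ± 0.36 (4.75-fold higher in testis, adjusted p = 0.00169), and -2.86 without seminal vesicle replicate 2. Of its exon bases, 5.87% overlap the gene Vrp1 on the other strand.

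The gene ord, for orientation disruptor (FBgn0003009; 2R, 23271257 to 23275536, minus strand), had 1322 and 1367 counts in testis against 54 and 74 in seminal vesicle. In CPM this was 79.7 in each testis library, and 4.41 and 7.93 in seminal vesicle. The groups lay far apart. The log2 fold change of ord was -3.71 ± 0.30 (13.1-fold higher in testis, adjusted p = 0.000121). Its log2 fold change lay below that of 83.3% of all genes tested, so 16.7% had a stronger excess in testis. For mei-S332 the share with a stronger excess in testis was 29.9%. On the seminal vesicle side, 38.6% of all genes tested had a higher log2 fold change than SMC3, 41.7% than vtd and 42.9% than SMC1.

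Transcripts of solo and sunn were scarce even in testis. The gene sunn, for sisters unbound (FBgn0052088; 3L, 11728348 to 11732016, plus strand), encodes a protein related to stromalins. It had 43 and 39 counts in testis and 4 and 0 in seminal vesicle. Its level was 2.43 ± 0.225 CPM in testis and 0.163 ± 0.231 CPM in seminal vesicle (SD, n = 2 each). The ratio of testis to seminal vesicle counts, scaled for library size, was 13.1 (95% counting interval 4.93 to 49.3; edgeR adjusted p = 0.00306). The seminal vesicle value rested on replicate 1, the library that held all 4 counts. Without it the fitted log2 fold change was -8.13, and without replicate 2 it was -2.87.

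The gene solo, for sisters on the loose (FBgn0283440; 2L, 15061656 to 15072133, plus strand), had 11 and 14 counts in testis and 2 and 0 in seminal vesicle. The count ratio was 8.00 (95% counting interval 1.995 to 69.7) and the log2 fold change -2.89 ± 0.81 (adjusted p = 0.0156). The groups did not overlap, but a count of 0 allows up to 0.321 CPM in seminal vesicle replicate 2, so the size of the difference is loosely bounded. The call was lost with DESeq2 (adjusted p = 0.0524) and without testis replicate 1 (0.0839). Without testis replicate 2 solo did not pass the filter. The fitted log2 fold change was -6.43 without seminal vesicle replicate 1 and -2.14 without replicate 2.

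The solo gene starts at the same base as vas, the gene of a germline RNA helicase, and shares exon sequence with it on the same strand. The shared stretch is 563 of 3337 exon bases of solo (16.9%) and 24.6% of the exon bases of vas. Reads that fall there cannot be given to one of the genes alone, and the reads recorded as ambiguous were 3.51% and 3.53% of alignments in testis and 1.58% and 1.67% in seminal vesicle. How the authors resolved such overlaps is not given in the sources used here. Over the exon bases that no other gene covers, solo in testis was at 0.267 CPM per kilobase, against 0.222 over its whole exon length. The helicase gene vas itself had 344 and 232 counts in testis and 24 and 6 in seminal vesicle. Its log2 fold change was -3.64 ± 0.45 (adjusted p = 0.000591), and -4.70 without seminal vesicle replicate 1. Like solo, vas passed the filter through testis alone, which made a higher testis level likely, so its test adds no support.

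The exception among the meiotic genes was tef (FBgn0086350; 2R, 17054546 to 17056835, minus strand), whose protein is needed for pairing of autosomes in male meiosis. Its 77 and 58 testis counts gave 4.64 and 3.38 CPM, and its 39 and 35 seminal vesicle counts gave 3.18 and 3.75 CPM. The tissues overlapped. The log2 fold change was -0.22 ± 0.28 with a 95% interval from -0.91 to 0.47 (adjusted p = 0.489), an interval that leaves room for modest differences in either direction but not for one of the size seen in ord. No other annotated gene covers the exon bases of tef on either strand. With spike-in factors tef was called higher in testis (log2 fold change -1.29, adjusted p = 0.00233), a scaling that moved the median of all genes tested to -1.17.

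Among the general genes SMC3 (FBgn0015615; X, 16588996 to 16593439, minus strand), an arm of the ring, differed most. It stood at 10.7 and 8.17 CPM in testis and at 17.6 and 17.8 CPM in seminal vesicle. Its seminal vesicle libraries were almost equal and both above testis. The log2 fold change was 0.91 ± 0.20 (adjusted p = 0.00511).

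The kleisin gene vtd (FBgn0260987; 3L, 27136525 to 27157999, plus strand) stood at 56.7 and 39.8 CPM in testis and at 73.4 and 77.1 CPM in seminal vesicle. The other arm gene, SMC1 (FBgn0040283; 3R, 24058287 to 24062815, plus strand), stood at 30.0 and 23.1 CPM in testis and at 38.8 and 38.3 CPM in seminal vesicle. For both genes the tissues did not overlap, and testis replicate 1 lay nearer to the seminal vesicle libraries than testis replicate 2. The log2 fold change of vtd was 0.64 ± 0.23 (95% interval 0.07 to 1.21, adjusted p = 0.039). That of SMC1 was 0.54 ± 0.19 (95% interval 0.07 to 1.00, adjusted p = 0.036), with an adjusted p of 0.0551 once replicate was a block.

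The loader gene Nipped-B (FBgn0026401; 2R, 4691672 to 4729017, minus strand) had the highest CPM of the general genes. It stood at 113 and 94.9 CPM in testis and at 84.9 and 111 CPM in seminal vesicle, so the tissues overlapped. Its log2 fold change was -0.09 ± 0.24 with a 95% interval from -0.68 to 0.51 (adjusted p = 0.747).

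The direction of the general cohesin genes depended on how libraries were scaled. With library size only the 3 calls were lost (log2 fold change 0.15 for SMC1, 0.52 for SMC3 and 0.25 for vtd), and with spike-in factors the values were -0.55, -0.18 and -0.45, with none called. The median of all genes tested moved from -0.11 to -0.49 and -1.17 under these scalings. Relative to that median with TMM scaling, SMC3 stood at 1.02, vtd at 0.75, SMC1 at 0.65 and Nipped-B at 0.02, and ord at -3.60 and mei-S332 at -2.14. A scaling moves all genes by nearly one amount, so such relative values are alike under every scaling by construction and say nothing of stability. The spike-in pools differed between tissues, and the most abundant seminal vesicle transcript, CG18628, took 15.1% and 15.6% of its gene counts. The 3 calls were also lost without testis replicate 2.

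**Figure D2:**
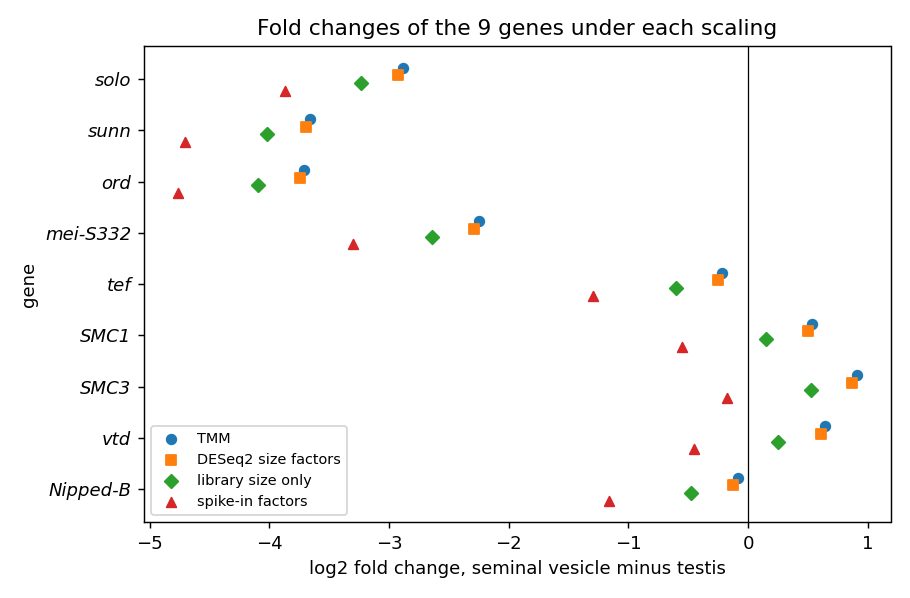
Log2 fold change, seminal vesicle minus testis, of the 9 genes under 4 scalings, 1 symbol per scaling. SMC1, SMC3 and vtd lie above 0 with TMM and below it with spike-in factors, while solo, sunn, ord and mei-S332 lie below 0 under all 4.

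Levels of different genes were compared per length, as CPM per kilobase of annotated exon. In testis mei-S332 led with 65.6 ± 3.26, followed by ord (20.4 ± 0.00242), vtd (19.1 ± 4.73), Nipped-B (15.5 ± 1.92) and SMC1 (6.77 ± 1.25). SMC3 (2.35 ± 0.452), tef (1.85 ± 0.411), sunn (0.811 ± 0.0749) and solo (0.222 ± 0.0325) came last (SD, n = 2 each). Within this order ord and vtd, vtd and Nipped-B, and SMC3 and tef did not differ beyond their spread. In seminal vesicle the order per kilobase was vtd (29.8 ± 1.03), Nipped-B (14.6 ± 2.75), mei-S332 (13.9 ± 6.73), SMC1 (9.81 ± 0.0921) and SMC3 (4.41 ± 0.0281). There tef (1.60 ± 0.185) and ord (1.58 ± 0.636) were level with each other, and mei-S332 overlapped with both Nipped-B and SMC1. At the end of that order sunn was at 0.0544 ± 0.0769 and solo at 0.0245 ± 0.0346, with both listed at 0 in replicate 2.

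Ratios within a library are free of the scaling between libraries. Per kilobase, SMC1 stood at 2.87 and 2.90 times SMC3 in testis and at 2.25 and 2.20 times SMC3 in seminal vesicle. The arms of the ring are present in equal number in the protein complex, while their transcripts were not level in either tissue. The kleisin vtd stood at 2.93 and 2.67 times SMC1 in testis and at 2.94 and 3.13 times SMC1 in seminal vesicle, ranges that nearly meet. By contrast ord stood at 0.908 and 1.29 times vtd in testis and at 0.0388 and 0.0664 times vtd in seminal vesicle. Its count share of ord and vtd together was 58.4% and 66.7% in testis and 5.67% and 9.33% in seminal vesicle. For mei-S332 the ratio to vtd was 2.82 and 4.31 in testis and 0.314 and 0.611 in seminal vesicle. With 2 libraries a tissue no exact permutation test can go below p = 0.333, so these ratios are given as values.

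The stromalin genes lay on opposite sides. SA2, which encodes the meiotic stromalin SNM of the conjunction complex (3L, 1434336 to 1437872, minus strand), had 256 and 202 counts in testis and 0 and 2 in seminal vesicle. SA1, the general stromalin of cohesin (2L, 6950421 to 6954586, plus strand), had 79 and 49 counts in testis and 237 and 238 in seminal vesicle. SA2 thus made up 76.4% (95% Wilson interval 71.6 to 80.6) and 80.5% (75.1 to 84.9) of the stromalin counts in the testis libraries. In seminal vesicle its share was 0% (0 to 1.6) and 0.833% (0.229 to 2.99). The count ratio of SA2, testis over seminal vesicle, was 147 (95% counting interval 40.3 to 1214). SA2 passed the filter on low counts through testis alone, so its direction was fixed and its test is no support. The fitted log2 fold change of SA2 was -5.92 without seminal vesicle replicate 1 and -10.71 without replicate 2, so its size rests on 2 counts. SA1 went the other way, with a log2 fold change of 2.55 ± 0.29 (5.86-fold higher in seminal vesicle, adjusted p = 0.000428). It was called in that direction with library size only (log2 fold change 2.16) and with spike-in factors (1.46) as well. Intervals cover counting error only.

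The other conjunction genes were uno and mod(mdg4). The gene uno, whose loss leaves univalents in male meiosis, had 3499 and 3570 counts in testis and 103 and 124 in seminal vesicle. Its level was 210 ± 1.96 against 10.8 ± 3.45 CPM in the same order. The difference was -4.28 ± 0.32 on the log2 scale (adjusted p = 7.69e-05). Per kilobase uno stood at 124 in testis, above all 9 genes. The gene mod(mdg4) was higher in seminal vesicle with TMM scaling, at 42.1 ± 3.63 against 81.7 ± 3.96 CPM (a log2 difference of 0.96 ± 0.19 and an adjusted p = 0.00335), but not called with spike-in factors (-0.12). It gives rise to 22 annotated transcripts, of which MNM is the product of one, and 56.9% of its exon bases lie under other genes on the same strand. Its value is therefore a sum over isoforms and is uncertain. Among 3 genes of this list, testis was called higher for 2 and seminal vesicle for 1, beside 44.5% and 42.1% of all genes tested.

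Of 7 other cohesin subunits and regulators, 3 were called in each direction, a share near that of all genes tested (44.5% and 42.1%), and the median log2 fold change was 0.29. SA1 and Mau2, the partner of Nipped-B in loading, were the furthest on the seminal vesicle side. Mau2 stood at 0.887 ± 0.231 CPM in testis and 4.90 ± 0.569 CPM in seminal vesicle (a log2 difference of 2.46 ± 0.32, adjusted p = 0.000593). Per kilobase Mau2 was 0.0206 and 0.0356 of Nipped-B in testis and 0.201 and 0.130 in seminal vesicle, so the transcripts of the loader pair were unequal in both tissues and more so in testis. The cohesin release factor wapl was the other gene on this side (0.54 on the log2 scale; the adjusted p was 0.0345, or 0.0542 when replicate was a block; -0.52 with spike-in factors). On the testis side were the acetyltransferase gene san (57.8 ± 5.13 against 18.1 ± 1.32 CPM, adjusted p = 0.000265), the cohesin acetyltransferase gene eco and dmt, which stabilises cohesion. For eco the adjusted p was 0.0183 (0.0547 once replicate was a block) and for dmt 0.00866. Without testis replicate 1 or testis replicate 2 both calls were lost, with an adjusted p of 0.149 and 0.172 for eco and of 0.103 and 0.0608 for dmt. The call of wapl was also lost without either testis library (0.0986 and 0.124) or seminal vesicle replicate 2 (0.0922), and with DESeq2 (0.132). The genes eco and dmt lie outside the rule for named genes and were named after their values were seen. The rule covers wapl only as the nearest profile to SMC1. The cohesin-binding gene pds5 was not called (33.6 ± 2.89 and 41.0 ± 5.76 CPM), but was called higher in testis with spike-in factors (log2 fold change -0.79, adjusted p = 0.0266). Its log2 fold change was 0.29 with all libraries and 0.44 without seminal vesicle replicate 1.

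**Figure D3:**
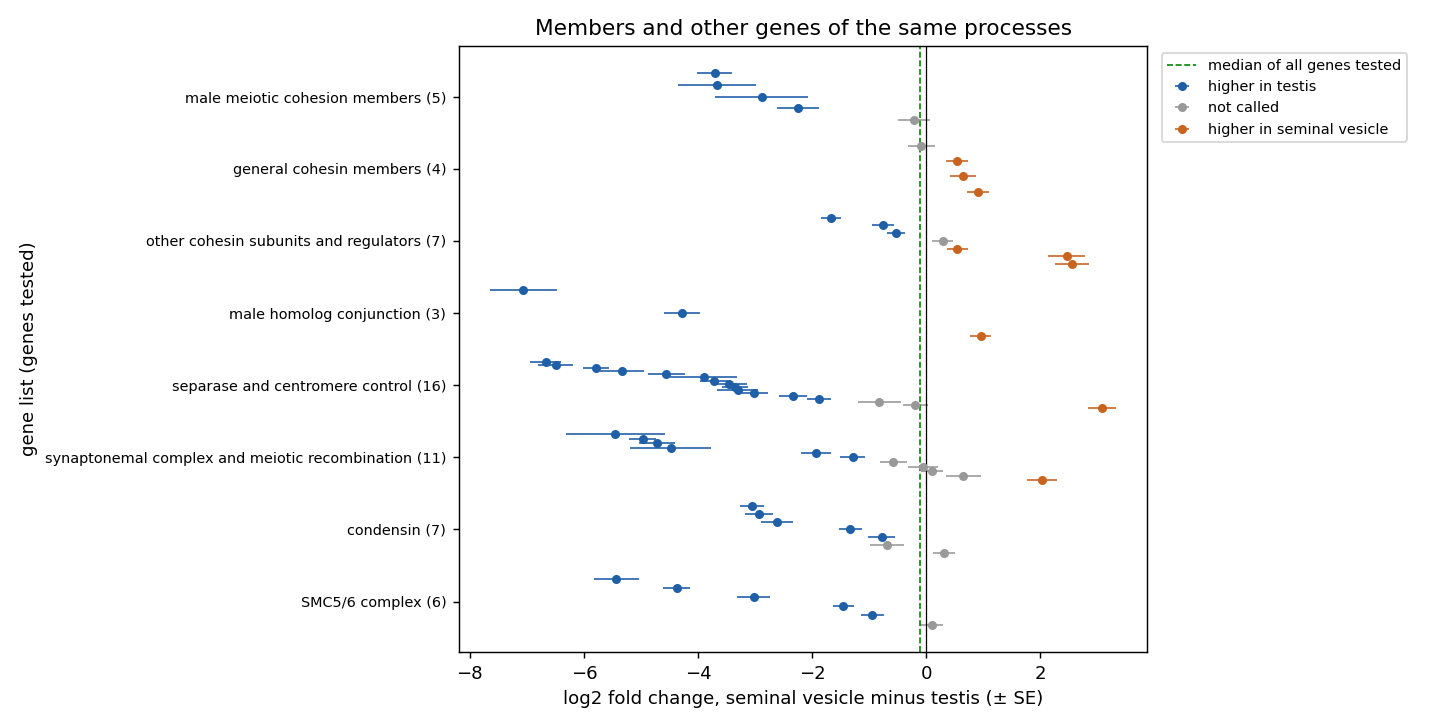
Log2 fold change, seminal vesicle minus testis, with its standard error, for the 9 genes and 50 other tested genes of chromosome cohesion and segregation, 1 point per gene and 1 row of points per list. Blue points were called higher in testis, orange points higher in seminal vesicle and grey points were not called; the dashed line is the median of all genes tested at -0.11.

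Of 50 other tested genes of these processes, testis was called higher for 34 and seminal vesicle for 6, while 10 were not called, beside 44.5% and 42.1% of all genes tested. Of the 50, 8 passed the filter through testis alone (SA2, thr, pim, Mps1, cid, c(2)M, rec and qjt). For these a higher testis level was made likely or certain by the filter, so the counts give no support. The separase and centromere list had 13 of 16 genes called higher in testis and a median log2 fold change of -3.40. The kinase gene polo, which regulates MEI-S332, stood at 245 ± 11.4 against 2.69 ± 0.468 CPM (log2 fold change -6.50 ± 0.30), and the securin gene pim at 43.6 ± 2.03 against 0.431 ± 0.148 CPM (-6.67 ± 0.27, adjusted p = 3.12e-05 for each). The gene wdb, of a regulatory subunit of protein phosphatase 2A, was higher in seminal vesicle (16.4 ± 2.95 against 139 ± 19.5 CPM, 3.08 ± 0.25 on the log2 scale, adjusted p = 9.84e-05). The gene tws, of another such subunit, was not called (101 ± 7.74 and 88.2 ± 10.1 CPM), but was called higher in testis with library size only (log2 fold change -0.58), with spike-in factors (-1.27) and without seminal vesicle replicate 2 (-0.32). Not called either was the separase gene Sse (adjusted p = 0.0801), which lies outside the rule for named genes.

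Genes of the synaptonemal complex and of meiotic recombination, which act in females, were also counted in testis. Of 17 in the files 11 passed the filter. Of these, testis was called higher for 6 and seminal vesicle for 1, beside 44.5% and 42.1% of all genes tested. Among the 6, c(2)M and rec passed the filter through testis alone, so their direction was fixed. A pair of components of the complex had high testis levels: corolla stood at 118 ± 4.32 against 4.53 ± 1.78 CPM, and cona at 45.2 ± 6.52 against 1.43 ± 0.0537 CPM (log2 fold changes -4.72 ± 0.32 and -4.97 ± 0.24, larger adjusted p = 6.76e-05). Per kilobase of exon in testis corolla was at 59.4 and cona at 52.8, levels between those of ord and mei-S332. The kleisin-like gene c(2)M had 52 and 29 testis counts and 1 in all in seminal vesicle, a count ratio of 51.8 (95% counting interval 9.05 to 2073). Its fitted log2 fold change was -5.45, but -4.86 without testis replicate 1, -8.11 when seminal vesicle replicate 1 was left out and -4.76 when replicate 2 was. The recombination genes mei-218, mei-P22, narya, nenya and hdm had at most 12 counts in any library, and mei-217 was listed at 0 in all 4. All exon bases of mei-217 are shared with mei-218 on the same strand, as are 79.3% of those of mei-218, so reads there could not be given to one of them and these low counts say little about expression. The exception in direction was the repair gene spn-B, at 1.36 ± 0.0321 against 5.55 ± 0.576 CPM (2.02 ± 0.26 on the log2 scale, adjusted p = 0.000606).

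For condensin, a related ring complex that compacts chromosomes, 5 of 7 genes were called higher in testis, beside 44.5% of all genes tested, among them Cap-G (119 ± 9.69 against 14.3 ± 1.32 CPM) and barr (91.6 ± 6.82 against 12.1 ± 3.1 CPM). Their log2 fold changes were -3.06 ± 0.21 and -2.93 ± 0.25 (larger adjusted p = 0.000114). For the SMC5/6 complex, which acts in DNA repair, 5 of 6 genes were called higher in testis. SMC6 stood at 189 ± 12.1 against 9.10 ± 0.29 CPM, SMC5 at 104 ± 11 against 12.9 ± 4.37 CPM and qjt at 24.6 ± 1.42 against 0.605 ± 0.509 CPM (largest adjusted p = 0.000213). The fitted log2 fold change of qjt was -4.65 without seminal vesicle replicate 1 and -6.61 without replicate 2. Thus SMC2 and glu of condensin, and SMC5 and SMC6, were higher in testis with TMM scaling (-2.62, -1.34, -3.03 and -4.38 in that order). SMC1 and SMC3 of cohesin were not. SMC2 and glu were named after their values were seen.

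Germ cell markers and male meiotic genes had counts in seminal vesicle, at a level relative to testis that differed by gene. Relative to the testis mean, mei-S332 stood at 13.9% and 28.4% in seminal vesicle replicates 1 and 2, ord at 5.53% and 9.94%, uno at 4.01% and 6.34%, and tef at 79.3% and 93.4%. The 8 germ cell markers spanned a wide range. Mst87F stood at 13.0% and 24.4%, dj at 10.9% and 22.4%, vas at 11.4% and 3.75% and can at 4.10% and 9.25%. Lower were twe at 0.792% and 2.64%, betaTub85D at 1.97% and 4.78%, fzo at 0.193% and 0.557%, and aly at 0.629% and 0%. Over these markers the summed level was 6552 and 7428 CPM in testis and 482 and 966 CPM in seminal vesicle. Replicate 2 was higher than replicate 1 in 6 of these 8 markers, and in ord, mei-S332, tef and uno, but not in solo (22.1% and 0%) or sunn (13.4% and 0%). The part of germ cell RNA in the seminal vesicle values of these genes was not tested.

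**Figure D4:**
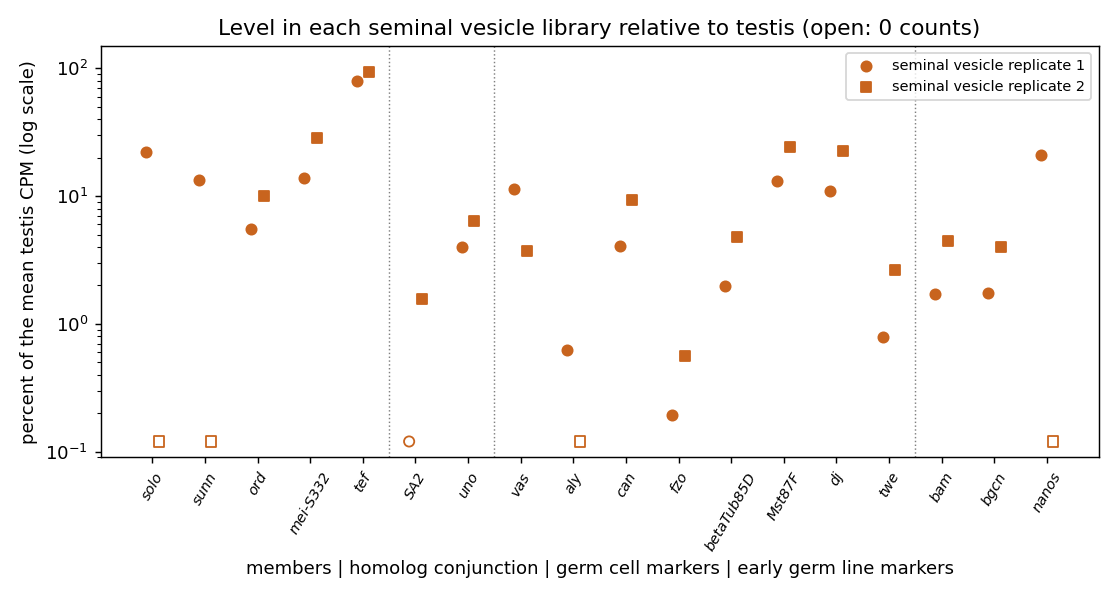
Level in each seminal vesicle library as a percent of the mean testis CPM, on a log axis, for the 5 male meiotic genes, SA2 and uno, and markers of germ cells and early germ line; open symbols at the base mark 0 counts. The tef points, at 79.3% and 93.4%, lie above all others, and mei-S332 lies close to Mst87F and dj.

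Likeness of pattern was measured over the 4 libraries as the Euclidean distance between log2 CPM profiles, each centred on its own mean, among the 50 tested genes of the lists. The nearest to ord was Incenp, of the chromosomal passenger complex (distance 0.262). The nearest to both tef and Nipped-B was tws (0.178 and 0.162). The nearest to SMC3 and to vtd was mod(mdg4) (0.175 and 0.393), and to SMC1 wapl (0.360). For mei-S332 it was rec (0.380), for sunn c(2)M (0.577) and for solo cerv (0.282). The profiles of rec, c(2)M, sunn and solo hold libraries at or near 0 counts and depend on the pseudocount of 0.5 CPM. With 2 tissues such profiles mostly restate the fold change.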

How the data were processed

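The authors deposited 1 file of raw read counts per gene for each library, not normalised. Per the labels, libraries were made from 200 ng of total RNA with a stranded poly(A) kit, and 50 bp single-end reads were mapped to FlyBase release 6.06. The submitters' processing notes name CASAVA 1.8.2, TopHat2 2.1.0 and HTSeq 0.6.1p1; strand and overlap settings are not given in the sources used here. Counting behaved as strand-specific: at least 10 counts were found for 1 of 81 genes lying within another gene's exons on its strand, and for 38 of 60 lying within exons of the other strand. The 96 spike-in rows and 5 summary rows (11.0% to 14.2% of alignments) stayed out of library sizes and tests. Symbols matched 17172 of 17409 identifiers. Coordinates and exon lengths are from a newer annotation of the Release 6 assembly, so lengths can differ from the gene models counted.

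The filter was filterByExpr (at least 10 in count and 15 in total) and the scaling TMM. The main test was the quasi-likelihood F test of edgeR 4.0.16 in R 4.3.3, with robust settings and tissue as the only term. The standard error is the size of the log2 fold change over the square root of F. The steps were tested on simulated data. Floors are 3 counts over the TMM-scaled total. P-values measure the spread between libraries, which come from separate dissections. The replicate block rests on inferring that equal numbers share a dissection day; the difference between replicates correlated at 0.0705 between tissues over genes. Members and lists were chosen with earlier results of these data known. Lists held 58 pathway entries, of which vilya is not analysed here and jnj repeats SMC6. Named genes were the 9 members, and per list the 2 most abundant, up to 2 called with the largest change, and those called against the list's majority, plus vas, the nearest profiles and the markers. Alternatives used DESeq2 1.42.0 and limma 3.58.1. No sequences are shown.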

Additional observations from a re-analysis of the deposited data

How the results depend on the processing

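Calls of ord and mei-S332 kept their direction and side of the threshold under all 13 alternatives for fold changes. So did those of sunn under the 12 in which it passed the filter. The direction of sunn was fixed by the filter, so its persistence adds no support. The number of the 9 genes called higher in testis was 4, but 2 with a filter of 5 CPM in 2 libraries, which leaves out solo and sunn, 6 with spike-in factors, 3 with DESeq2, 3 at an adjusted p threshold of 0.01, and 3 to 4 without single libraries. The number called higher in seminal vesicle was 3, but 0 with library size only, 0 with spike-in factors, 1 with no filter, 1 with DESeq2 and 1 at an adjusted p threshold of 0.01. Without single libraries it ran from 0 (without testis replicate 2) to 3, and with the replicate block it was 2. At an unadjusted p under 0.05 the count was 0 in each of these 3 fits (library size only, spike-in factors and without testis replicate 2). All-gene calls numbered 4395 higher in seminal vesicle with library size only and 3272 with spike-in factors. With spike-in factors the log2 fold change turned to -0.55 for SMC1, -0.18 for SMC3 and -0.45 for vtd. It turned to -0.12 for mod(mdg4) and -0.52 for wapl, and none of these genes was called. For pds5 it turned to -0.79 and the gene was called higher in testis, as were tef and Nipped-B (-1.29 and -1.17). That scaling moved the median of all genes tested to -1.17. Spike-in counts were 0.0326% and 0.0390% of gene counts in testis and 0.0599% and 0.0543% in seminal vesicle, and the spike-in pools differed between tissues. The fit without CG18628 and Jhbp5, added after seeing the data, gave 3 genes called in each direction, as solo no longer passed the filter. The other causes were not tested. Per kilobase of the longest transcript mei-S332 in testis was at 70.0. Fits without 1 library take the spread of the reduced tissue from the other. Depth limits solo and sunn, whose seminal vesicle counts total 2 and 4.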
